A study of Zea mays with 36 samples.

Results

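Root RNA collected 0.5 h after nitrate was returned was compared with root RNA collected 0.5 h after nitrate was removed. Both groups were taken at the same delay after a change of solution and 24 h apart, so at the same hour of the day. The members were the genes at 1 TPM or more in at least 3 of the 6 libraries compared, which kept 24815 of 43459 genes. TPM is a transcript level corrected for gene length and for the total of its library.

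All plants were of the maize inbred line B73, grown in hydroponic solution with sufficient nitrate before treatment. In the nitrogen deprivation group (0.5 h ND), nitrate salts had been replaced by salts without nitrate for 0.5 h. In the nitrogen recovery group (24.5 h NR), the same removal had lasted 24 h and nitrate had then been back for 0.5 h. Each group held 3 biological replicates, each a pool of several plants, and the methods of the study describe the root sample as seminal and crown roots together. The 24.5 h plants were also 24 h older and had passed through deprivation, so the direction of the nitrate change, plant age and nitrogen history cannot be told apart in this contrast. Levels at 0 h under sufficient nitrate (NN) and at the end of deprivation (24 h ND) are therefore given beside the values of the called genes.

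Roots take up nitrate through high-affinity transporters of the NRT2 family, which work with the partner protein NAR2, and through low-affinity transporters of the NRT1/NPF family. Nitrate reductase makes nitrite in the cytosol, and nitrite reductase makes ammonium in the plastid with electrons from ferredoxin and with siroheme as a cofactor. Ammonium then enters amino acids through glutamine synthetase and glutamate synthase, and genes for the first steps are known as rapid nitrate-responsive genes in plants.

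Between 24169 and 24773 genes reached 1 TPM in the 6 libraries. The top 10 genes held 5.09%, 5.80% and 6.90% of TPM in the 0.5 h ND libraries. In the 24.5 h NR libraries they held 4.81%, 4.48% and 4.53%, so the groups did not overlap in this share. Each library correlated better with its own group (mean r of log2 values 0.970 to 0.976) than with any library of the other group (highest r 0.957 to 0.959). Leaf RNA was present at different levels. The median level of 225 leaf marker genes, as a percent of their leaf level, was 0.553%, 1.08% and 0.159% in the 0.5 h ND libraries and 0.146%, 0.487% and 1.94% in the 24.5 h NR libraries. Their summed level was 484 to 2508 TPM in the first group and 424 to 4226 TPM in the second, and from 0 to 23 of the 225 were listed at 0 in a library. Of the 194 leaf markers tested, 0 were called by limma (5 at an unadjusted p under 0.05), 611 genes were called when 539 leaf-enriched genes were taken out, and LHCB5, a light-harvesting protein, had 4.83, 7.44 and 1.08 TPM at 0.5 h and 1.07, 3.45 and 17.96 TPM at 24.5 h. The root uptake genes NRT2.1, NRT2.2, NAR2.1 and AMT1.3 were detected in each of the 6 libraries.

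The 2 groups differed at a small share of genes, in both directions. Called genes had a Benjamini-Hochberg adjusted p under 0.05 in limma and an absolute log2 fold change above 1. There were 613 of them, 2.47% of those tested, with 320 higher (1.29%) and 293 lower (1.18%) at 24.5 h. At any fold, 3133 genes (12.6%) passed the adjusted p, and 7436 (30%) had an unadjusted p under 0.05. The median absolute log2 fold change of the calls was 1.29, and 78 calls passed 2, of which 41 were higher and 37 lower. The groups did not overlap for 579 of the 613 calls, while 36.8% of all genes tested did not overlap. The median log2 fold change of all genes tested was 0.13, and it fell to 0.01 with median-of-ratios scaling, a shift of -0.12. With that scaling 561 genes were called, and the share of calls that were higher was 34.2% against 52.2%. List medians below are therefore also given relative to the median of all genes. Of the calls, 19 of the higher and 26 of the lower were at 1 TPM or more in each library of one group and in none of the other. In leaving out 1 library at a time, the count fell to 311 without 0.5 h ND replicate 2, 389 without 0.5 h ND replicate 3, 329 without 24.5 h NR replicate 1 and 371 without 24.5 h NR replicate 3.

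**Figure D1:**
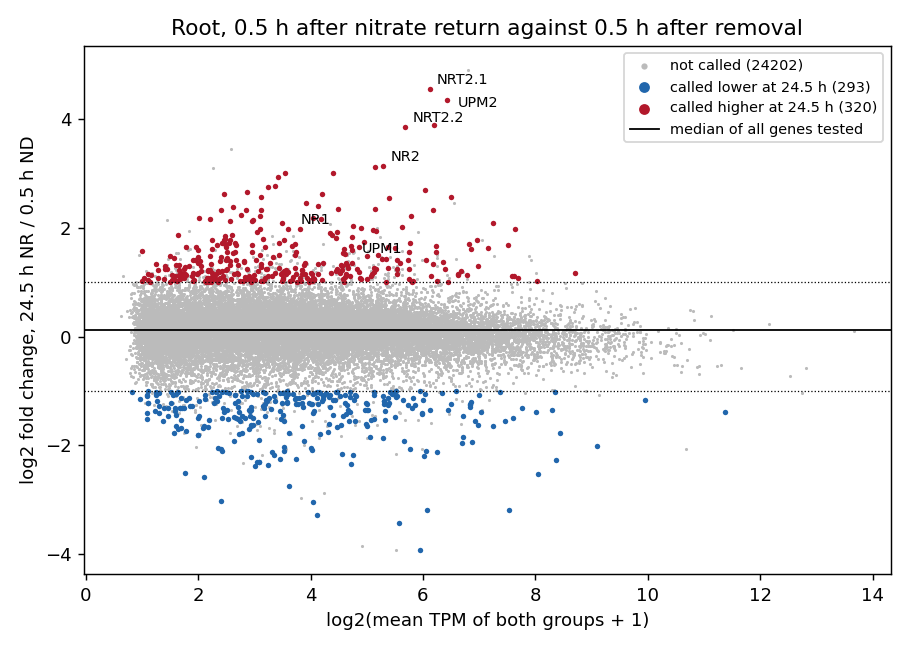
Each point is a gene, with log2(mean TPM of both groups + 1) on the horizontal axis and the log2 fold change of 24.5 h NR over 0.5 h ND on the vertical axis. Red points are the 320 genes called higher, blue points the 293 called lower, dotted lines mark 1 and -1, and the solid line is the median of all genes, 0.13. NRT2.1, UPM2, NRT2.2 and NR2 lie at the top of the plot.

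The groups started from different levels. The difference 24 h ND minus 0 h NN shares no library with the contrast, and 940 genes (3.79% of those tested) were called in it. Both differences came from the same fit with a shared spread per gene, so their calls are not independent. Of the 320 genes called higher at 24.5 h, 57 were also called higher at 24 h than at 0 h, which is 17.8% of the first list and 19% of the 300 genes (1.21% of those tested) in the second. Of the 293 called lower, 80 were called lower in the starting levels as well, 27.3% of the first list and 12.5% of the 640 (2.58% of those tested) in the second. A further 11 of the higher and 10 of the lower calls were called in the opposite direction between the starting levels. Across the 24815 genes the Pearson correlation of the fitted differences was 0.26 and the Spearman correlation 0.15, over genes, which are not independent replicates. Among the higher calls the median log2 fold change was 1.26 in the contrast and 0.45 in the starting levels, and among the lower calls it was -1.31 and -0.57.

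**Figure D2:**
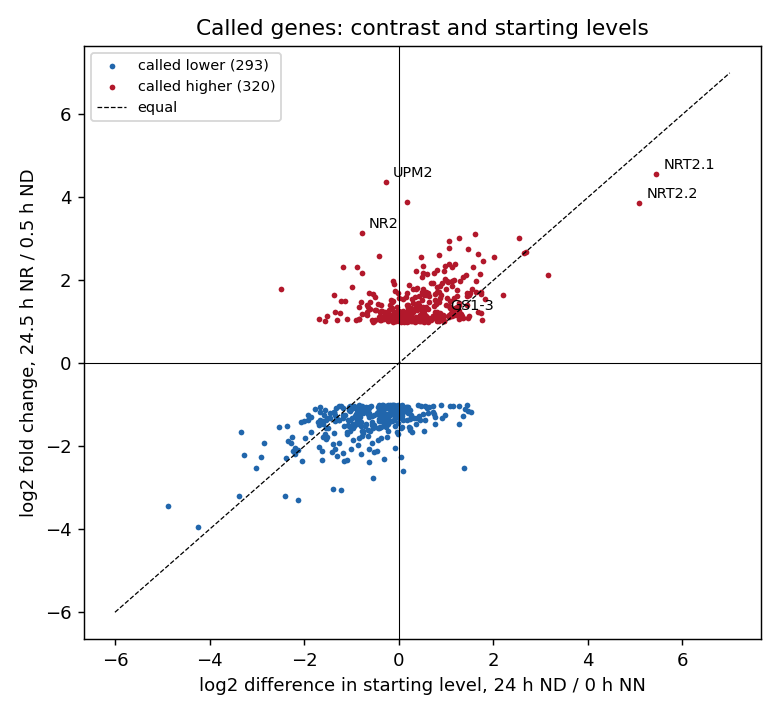
Each point is a called gene, with the log2 difference in starting level (24 h ND over 0 h NN) on the horizontal axis and the log2 fold change of the contrast on the vertical axis. Points on the dashed line differed as much before the solution was changed as after. NRT2.1 and NRT2.2 lie near that line at 5.44 and 5.09 on the horizontal axis, and UPM2 and NR2 lie near 0 and below at -0.28 and -0.78.

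Nitrate assimilation had the largest share of calls among the process lists of the study's network. Of its 16 genes, 13 were tested, 6 were called higher, 1 was called lower and 6 were not called. The list's 53.8% called compares with 2.47% over all genes. Its median log2 fold change was 0.99, which is 0.86 above the median of all genes. The 3 members below the filter were NR3 and 2 genes named GOGAT4. The 6 genes called higher were both UPM genes, NR1, NR2, NIR2 and GS1-3. In a separate list built from keywords on nitrate uptake and reduction, 10 genes were tested, with 5 called higher and 1 lower (60%) and a median of 1.14. That list draws only on genes that the study called in this series, however.

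UPM2 (Zm00001eb159150) makes a precursor of siroheme, the cofactor of nitrite reductase, and lies on chromosome 3, 222078417 to 222082354 of the NAM-5.0 assembly. It had 8.49, 7.01 and 5.27 TPM at 0.5 h ND and 133, 217 and 142 TPM at 24.5 h NR. The groups were far apart, and the mean was 23.7-fold higher after return (log2 fold change 4.36 (SE 0.35, adjusted p = 3.64e-05) by limma). UPM2 had 44.8 TPM at 0 h and 41.01 TPM at 24 h, so similar starting levels preceded a fitted log2 change of -2.54 on removal and 2.102 on return. It was 1 of 2 genes past a limma test against a log2 fold change of 1, where the adjusted p was 0.000679. The related gene UPM1 (chromosome 8, 149732209 to 149735982) had 12.01, 10.5 and 9.31 TPM at 0.5 h and 33.4, 49.1 and 40.2 TPM at 24.5 h (log2 fold change 1.84 (SE 0.28, adjusted p = 0.00213)), with means of 24.2 TPM at 0 h and 11.8 TPM at 24 h.

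Nitrate reductase was represented by 2 tested genes, and both were higher after return. NR2 (Zm00001eb256260, chromosome 5, 219126568 to 219130006) had 4.15, 7.65 and 8.57 TPM at 0.5 h and 43.9, 104 and 61.1 TPM at 24.5 h, a 10.2-fold difference in the means (log2 fold change 3.14 (SE 0.36, adjusted p = 0.000433)). NR1 (Zm00001eb176470, chromosome 4, 58905750 to 58910788) had 8.99, 6.15 and 7.68 TPM at 0.5 h and 29.4, 31.5 and 31.9 TPM at 24.5 h, a 4.07-fold difference (log2 fold change 1.905 (SE 0.30, adjusted p = 0.00247)). For both genes the lowest library after return exceeded the highest library after removal by over 3-fold. NR1 and NR2 stood at 18.5 and 30.05 TPM at 0 h and at 18.8 and 18.9 TPM at 24 h, so both 24.5 h means lay above the starting level. NR3, whose description matches that of NR1, did not exceed 0.890 TPM in the 6 libraries.

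The nitrite reductase genes were less separated. NIR2 (Zm00001eb255880) had 32.3, 33.7 and 26.7 TPM at 0.5 h and 58.6, 90.2 and 76.8 TPM at 24.5 h (log2 fold change 1.24 (SE 0.37, adjusted p = 0.0397)), and the groups did not overlap. Its mean was 87.1 TPM at 0 h and 35.9 TPM at 24 h. NIR2 was not called without any 1 of the 6 libraries (log2 fold change 1.1 to 1.41, adjusted p 0.0667 to 0.114), nor after either rescaling (log2 fold change 1.11 to 1.16, adjusted p 0.0684 to 0.0837). In all, NIR2 lost its call in 10 of the 18 alternatives described below. NIR1 (Zm00001eb193660, chromosome 4, 183572704 to 183576240) had 26.9, 30.5 and 43.6 TPM at 0.5 h and 40.9, 80.97 and 70.4 TPM at 24.5 h. The NIR1 groups overlapped and the difference did not pass the test (log2 fold change 0.88 (SE 0.44, adjusted p = 0.194), 95% interval -0.06 to 1.82). NIR1 had fallen further by the end of deprivation, from 55.9 to 15.7 TPM. RFNR (Zm00001eb059850), root ferredoxin-NADP reductase, which supplies reduced ferredoxin to the plastid, had 246, 272 and 224 TPM at 0.5 h and 519, 460.4 and 489.8 TPM at 24.5 h. Its groups did not overlap, but the log2 fold change of 0.99 (SE 0.36, adjusted p = 0.0833) missed both thresholds (95% interval 0.22 to 1.75).

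The glutamine synthetase genes moved in different directions. GS1-3 (Zm00001eb253820, chromosome 5, 213469634 to 213472991) had 304, 221 and 248 TPM at 0.5 h and 589.9, 603 and 527 TPM at 24.5 h (log2 fold change 1.16 (SE 0.26, adjusted p = 0.0121)). It had already stood at 553 TPM at 24 h against 289 TPM at 0 h, and its fitted change on return was 0.05. GS1-3 was not called without 0.5 h ND replicate 2 (log2 fold change 1.06, adjusted p = 0.0566). GS1-5 (Zm00001eb399860) had 42.9, 53.8 and 55.04 TPM at 0.5 h and 41.9, 13.01 and 22.1 TPM at 24.5 h and was called lower (log2 fold change -1.09 (SE 0.33, adjusted p = 0.044)). That call was lost without any 0.5 h ND library, or 24.5 h NR replicate 2 or 3 (log2 fold change -0.703 to -1.205, adjusted p 0.0572 to 0.163). In all, the call was lost in 11 of the 18 alternatives described below. GS1-5 had 70.4 TPM at 0 h and 20.1 TPM at 24 h. GS1-1, the most abundant of the 3 in TPM, had 430, 626 and 512 TPM and 897, 483 and 818 TPM (log2 fold change 0.45 (SE 0.23, adjusted p = 0.199)), with overlapping groups. The glutamate synthase genes GOGAT1, GOGAT2 and GOGAT3 had log2 fold changes of 0.35, -0.29 and 0.46, none of them called.

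**Figure D3:**
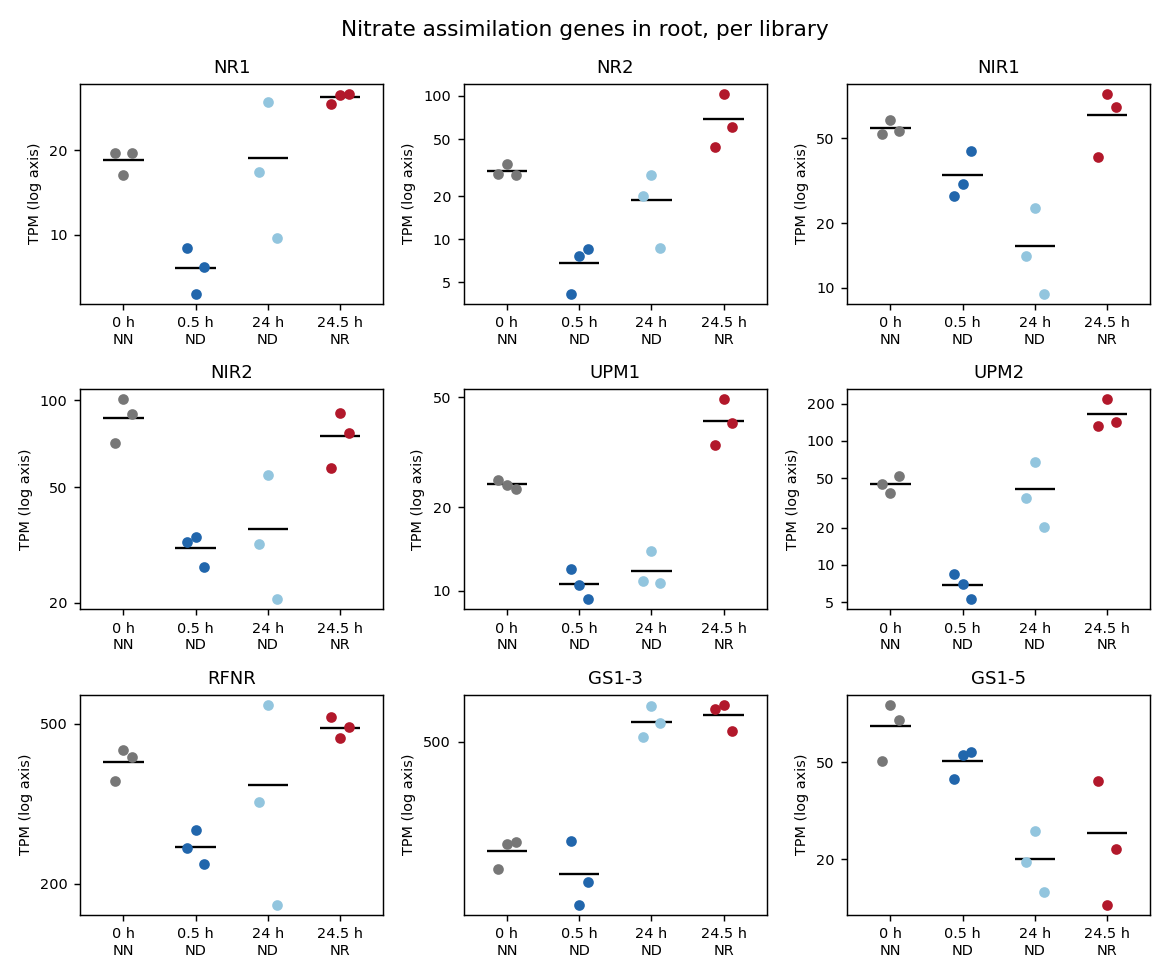
Each panel shows the TPM of a nitrate assimilation gene on a log axis, with a point for each of 3 libraries at 0 h NN, 0.5 h ND, 24 h ND and 24.5 h NR and a line at the mean. The UPM2, NR2, UPM1 and NR1 points at 24.5 h lie above all those at 0.5 h, whereas GS1-3 stood near its 24.5 h level at 24 h and the NIR1 groups overlap.

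Of the 15 N transporter genes, 14 were tested and 2 were called, both higher, which is 14.3% of the list. The list's median log2 fold change was 0.38, 0.25 above that of all genes. The 2 calls were the high-affinity transporters NRT2.1 and NRT2.2, which were already high before nitrate was returned.

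NRT2.1 (Zm00001eb209670) had 1.68, 4.67 and 7.26 TPM at 0.5 h and 201, 56.8 and 139 TPM at 24.5 h, with no overlap (log2 fold change 4.56 (SE 1.28, adjusted p = 0.0323)). Its mean was 1.22 TPM at 0 h and 117 TPM at 24 h, a fitted log2 difference of 5.44 (adjusted p = 0.00818 by limma). NRT2.2 (Zm00001eb209690, chromosome 4, 248945115 to 248946969) had 1.85, 4.95 and 8.74 TPM at 0.5 h and 139, 28.8 and 119 TPM at 24.5 h (log2 fold change 3.86 (SE 1.15, adjusted p = 0.0398)). Return of nitrate for 0.5 h changed the fitted levels of NRT2.1 and NRT2.2 by 0.31 and 0.501, which is small beside their differences at the start. Replicate 2 was the lowest 24.5 h library for both genes, and without it the log2 fold change of NRT2.1 was 5.07 (adjusted p = 0.0417). NRT2.2, whose 0 h and 24 h means were 0.651 and 82.2 TPM, was not called after either rescaling (log2 fold change 3.73 to 3.81, adjusted p 0.0523 to 0.0579). Without either other 24.5 h library, or without any 0.5 h library, neither gene was called (adjusted p 0.0596 to 0.128), although the log2 fold change stayed between 3.38 and 4.92. In all, NRT2.1 lost its call in 6 of the 18 alternatives and NRT2.2 in 10. NRT2.1 and NRT2.2 correlated at r = 0.98 over the 18 root libraries, and reads shared between such related copies may be split uncertainly between them.

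NAR2.1 (Zm00001eb246140), the partner that NRT2 transporters need, had 8.92, 8.45 and 6.82 TPM at 0.5 h and 31.8, 8.8 and 30.3 TPM at 24.5 h. The second replicate at 24.5 h lay within the 0.5 h range, and the log2 fold change of 1.26 (SE 0.44, adjusted p = 0.0718) did not pass the test (95% interval 0.32 to 2.2). Without that library it was 1.83 (adjusted p = 0.0119). Its mean was 8.94 TPM at 0 h and 25.3 TPM at 24 h. AMT2.3, an ammonium transporter, had 4.73, 4.11 and 3.5 TPM at 0.5 h and 7.57, 12.2 and 9.15 TPM at 24.5 h and was not called (log2 fold change 1.04 (SE 0.40, adjusted p = 0.0931)). AMT2.3 was called higher with the 6 libraries fitted alone and when the 48 h libraries were left out. Its mean was 6.4 TPM at 0 h and 8.93 TPM at 24 h, and its fitted log2 change on return was 0.08.

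Other transporters moved less. NRT1.1 (Zm00001eb416090), a dual-affinity nitrate transporter and sensor in Arabidopsis, had 100.4, 89.9 and 94.6 TPM at 0.5 h and 47.9, 55.6 and 67.7 TPM at 24.5 h. Its mean was 85.5 TPM at 0 h and 49.2 TPM at 24 h, and its fitted log2 change on return was 0.19. The lower level at 24.5 h than at 0.5 h passed the adjusted p but not the fold threshold (log2 fold change -0.74 (SE 0.19, adjusted p = 0.0228)). AMF1-2 (0.39, adjusted p = 0.0172) and NPF4.7 (-0.38, adjusted p = 0.0344) behaved the same way by limma, as log2 fold changes below 1 in size. AMT1.3, AMF1-1, AMT2.4, NPF2.3, NPF3.6, NPF4.9 and NRT1.3 had log2 fold changes from -0.48 to 0.68 with none past the adjusted threshold. NRT2.5 was below the filter, with its 0.5 h libraries at or below 0.0155 TPM and its 24.5 h libraries at 0.762, 2.35 and 0.821 TPM. Its mean was 0.0387 TPM at 0 h and already 2.05 TPM at 24 h, before nitrate was returned.

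**Figure D4:**
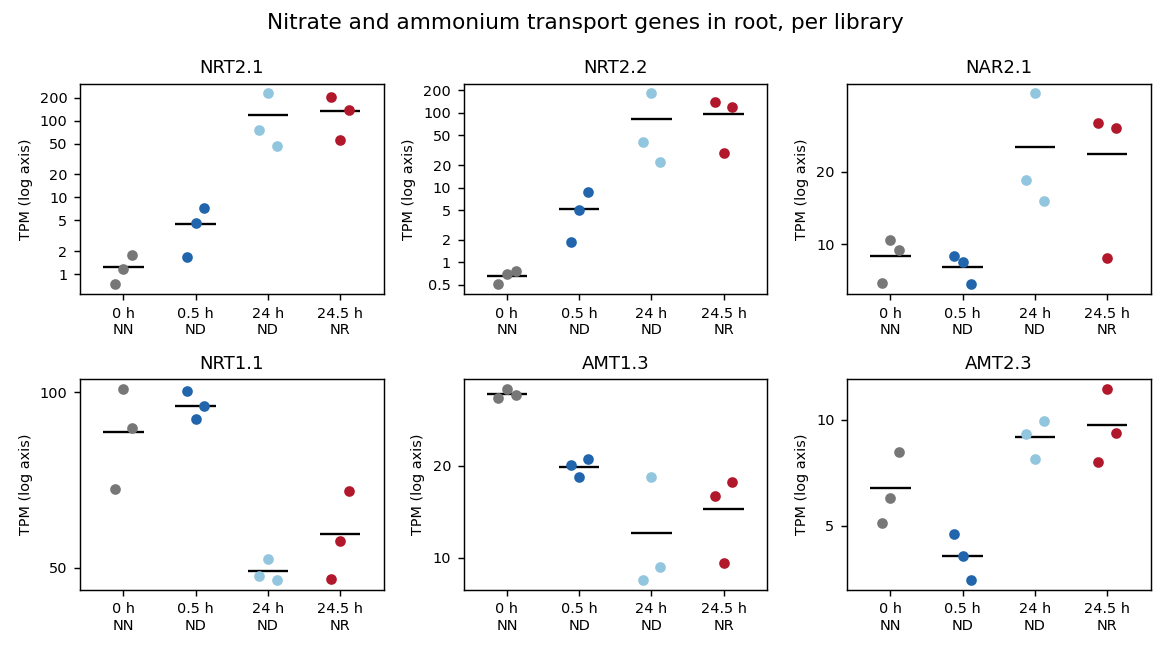
Each panel shows the TPM of a transport gene on a log axis, with a point for each of 3 libraries at 0 h NN, 0.5 h ND, 24 h ND and 24.5 h NR and a line at the mean. NRT2.1 and NRT2.2 were high at 24 h and remained high at 24.5 h, with replicate 2 the lowest of the 3 at 24.5 h, and NRT1.1 was lower at 24 h and 24.5 h than at 0.5 h.

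Genes of amino acid metabolism were lower where they were called. Of 8 genes tested, 0 were called higher and 2 lower, 25% of the list, with a list median of 0.15. GDH2 (Zm00001eb427810), a glutamate dehydrogenase, had 305, 358 and 457 TPM at 0.5 h and 156, 115 and 155 TPM at 24.5 h (log2 fold change -1.38 (SE 0.36, adjusted p = 0.0231)). ASN3 (Zm00001eb013430), an asparagine synthetase, had 72.3, 30 and 22.3 TPM at 0.5 h and 11.7, 8.57 and 16.03 TPM at 24.5 h (log2 fold change -1.56 (SE 0.47, adjusted p = 0.0409)). Both had lower starting levels at 24 h than at 0 h: GDH2 had 36.6 against 113 TPM and ASN3 had 6.75 against 20.4 TPM. The means of both genes lay above the starting level in both groups. Fitted log2 changes on removal and on return were 1.72 and 1.94 for GDH2, and 0.86 and 0.84 for ASN3. A second asparagine synthetase gene, described as asparagine synthetase 4 (Zm00001eb396990), had 86.96, 75.1 and 104 TPM at 0.5 h and 53.3, 16.7 and 38.5 TPM at 24.5 h (log2 fold change -1.405 (SE 0.43, adjusted p = 0.044)). Its mean was 131 TPM at 0 h and 31.8 TPM at 24 h. The call of GDH2 was lost without 0.5 h ND replicate 2 or 3, or any 24.5 h NR library (log2 fold change -1.23 to -1.46, adjusted p 0.0564 to 0.0813). That of ASN3 was lost without 0.5 h ND replicate 1 or 2, or any 24.5 h NR library (log2 fold change -1.08 to -1.77, adjusted p 0.0653 to 0.14). That of the second asparagine synthetase was lost without any 0.5 h ND library, or 24.5 h NR replicate 2 or 3 (log2 fold change -0.94 to -1.52, adjusted p 0.0795 to 0.162). The calls of GDH2, ASN3 and the second asparagine synthetase were lost in 5, 8 and 10 of the 18 alternatives.

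Smaller process lists held 3 further calls. In the stress response list, 2 of 6 genes were called, both higher: OSM3, with 33.4, 11.9 and 13.6 TPM at 0.5 h and 57.9, 103 and 69.3 TPM at 24.5 h (log2 fold change 2.02 (SE 0.49, adjusted p = 0.0176)), and NHL4, with 1.3, 2.48 and 1.24 and 12.1, 2.88 and 11.8 TPM (log2 fold change 1.73 (SE 0.37, adjusted p = 0.0107)). OSM3 had 16.2 TPM at 0 h and 36.4 TPM at 24 h, and was not called without 0.5 h ND replicate 2 or 3, or 24.5 h NR replicate 2 (log2 fold change 1.75 to 1.84, adjusted p 0.0541 to 0.0785). In NHL4, at 0.966 and 2.53 TPM at those times, the second replicate at 24.5 h lay near the 0.5 h range. NHL4 was not called without 24.5 h NR replicate 1 or 3 (log2 fold change 1.43 to 1.44, adjusted p 0.0519 to 0.0535). AUF4, of the auxin signalling list, was 1 of 3 genes called, and had 16.5, 15.5 and 21.9 TPM at 0.5 h and 32.7, 40.1 and 44.3 TPM at 24.5 h (log2 fold change 1.08 (SE 0.22, adjusted p = 0.00822)). AUF4 had 7.91 TPM at 0 h and 14.5 TPM at 24 h. It was not called after either rescaling (log2 fold change 0.95 to 0.96, adjusted p 0.0136 to 0.017) or without 0.5 h ND replicate 2 or 24.5 h NR replicate 3 (log2 fold change 0.99 to 0.99, adjusted p 0.039 to 0.0413). None of the 4 tested genes of carbon metabolism, 7 of the N-linked list, 3 of ethylene biosynthesis, 2 of ubiquitination, 2 enzymes or 1 of cytokinin synthesis was called by limma. Of these 19, 5 had an unadjusted p under 0.05, against 30% of all genes tested.

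Transcription factors of the network were called in both directions. Of 263 tested, 7 were higher and 6 lower, 4.94% of the list, and the list median of 0.10 lay 0.03 below that of all genes. C2H5 (Zm00001eb063930), a zinc-finger protein by its family name, had 1.64, 2.19 and 0.839 TPM at 0.5 h and 13.9, 13.9 and 13.8 TPM at 24.5 h, the largest difference of the 7 (log2 fold change 2.58 (SE 0.31, adjusted p = 0.000525)). Its 24.5 h libraries agreed closely, and its mean was 3.71 TPM at 0 h and 2.2 TPM at 24 h.

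The higher factors also included NAC125 and HB54, a homeobox factor. NAC125 had 20.9, 16.8 and 18.7 TPM at 0.5 h and 44.6, 72.5 and 69.7 TPM at 24.5 h (log2 fold change 1.65 (SE 0.19, adjusted p = 0.000433)). Its mean was 68.9 TPM at 0 h and 25.9 TPM at 24 h, so the level after return lay near that under sufficient nitrate. HB54 had 16.2, 25 and 17.6 TPM at 0.5 h and 47.7, 50.9 and 45.3 TPM at 24.5 h (log2 fold change 1.27 (SE 0.18, adjusted p = 0.00181)), with means of 19.6 TPM at 0 h and 14.8 TPM at 24 h. EREB13, GLK9, Orphan207 and WRKY15 were also called higher, at log2 fold changes of 1.696, 1.06, 1.63 and 1.15. Their means at 0 h were 4.84, 30.7, 45.8 and 46.6 TPM, and at 24 h 2.55, 38.6, 117 and 50.5 TPM. Orphan207 had 347, 75.5 and 243 TPM at 24.5 h, and its second replicate lay inside the 0.5 h range of 89.9, 44.6 and 51.98 TPM. Orphan207 was not called without 0.5 h ND replicate 2 or 3, or 24.5 h NR replicate 1 or 3 (log2 fold change 1.18 to 1.53, adjusted p 0.0869 to 0.128), with the 6 libraries fitted alone, or after median-of-ratios scaling (log2 fold change 1.49, adjusted p = 0.0536). GLK9 was not called after either rescaling (log2 fold change 0.93 to 0.98, adjusted p 0.0389 to 0.0498) or without 0.5 h ND replicate 2, or 24.5 h NR replicate 1 or 2 (log2 fold change 0.901 to 1.07, adjusted p 0.058 to 0.0629). WRKY15 was not called without 0.5 h ND replicate 2 or 3, or 24.5 h NR replicate 1 or 3 (log2 fold change 0.96 to 1.13, adjusted p 0.0581 to 0.0838).

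MYB40 had the largest negative fold change among network factors. MYB40 (Zm00001eb130260) is described as MYB12, a regulator of flavonol genes in Arabidopsis, and had 7.73, 28.3 and 17.7 TPM at 0.5 h and 1.61, 4.96 and 2.85 TPM at 24.5 h (log2 fold change -2.11 (SE 0.41, adjusted p = 0.00677)). Its mean was 6.37 TPM at 0 h and 1.4 TPM at 24 h. A gene described as flavonol synthase/flavanone 3-hydroxylase (Zm00001eb013360) was lower as well, with 13.7, 20.3 and 14.3 TPM at 0.5 h and 5.53, 2.88 and 6.46 TPM at 24.5 h (log2 fold change -1.55 (SE 0.33, adjusted p = 0.0101)). Its mean was 3.52 TPM at 0 h and 2.3 TPM at 24 h, so both groups lay above their starting level, with fitted changes of 1.97 on removal and 0.83 on return. This gene was not called without 0.5 h ND replicate 2 (log2 fold change -1.39, adjusted p = 0.0509).

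DOF41, EREB76, EREB141, WRKY92 and NAC109 were called lower, with log2 fold changes from -1.51 to -1.001. The means of DOF41, EREB76, EREB141 and WRKY92 were 8.94, 5.91, 0.0611 and 50.7 TPM at 0 h and 3.57, 10.7, 0 and 33.1 TPM at 24 h. NAC109 had 89.3, 75.2 and 79.3 TPM at 0.5 h and 51.2, 33.01 and 37.8 TPM at 24.5 h (log2 fold change -1.001 (SE 0.15, adjusted p = 0.00214)), and its levels of 39.8 TPM at 0 h and 39.8 TPM at 24 h were alike. NAC109 was not called without 0.5 h ND replicate 1, or 24.5 h NR replicate 2 or 3 (log2 fold change -0.87 to -0.96, adjusted p 0.00544 to 0.0138). NAC109 and NAC125 carry the same description, NAC domain-containing protein 2, and differed in opposite directions. EREB141 overlapped between groups, at 1.23, 3.56 and 7.42 TPM at 0.5 h and 0.826, 0.571 and 1.81 TPM at 24.5 h, and was not called without 0.5 h ND replicate 2 or 3, or 24.5 h NR replicate 1 or 2 (log2 fold change -0.67 to -1.11, adjusted p 0.114 to 0.161). DOF41 lost its call without 0.5 h ND replicate 2, or 24.5 h NR replicate 1 or 2 (log2 fold change -1.23 to -1.57, adjusted p 0.0504 to 0.086). For EREB76 this happened without 24.5 h NR replicate 2 (log2 fold change -0.93, adjusted p = 0.0404), and for WRKY92 without 0.5 h ND replicate 3 or 24.5 h NR replicate 2 (log2 fold change -0.86 to -0.90, adjusted p 0.0296 to 0.0415).

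The NLP family, known in Arabidopsis as nitrate sensors that turn on nitrate-responsive genes, had 0 of 5 tested genes called by limma. Of these 5, 2 had an unadjusted p under 0.05, against 30% of all genes tested. The largest fold change was that of NLP17, with 4.29, 5.01 and 5.73 TPM at 0.5 h and 9.5, 14.7 and 9.73 TPM at 24.5 h (log2 fold change 1.01 (SE 0.37, adjusted p = 0.0817), 95% interval 0.23 to 1.802). NLP17 was called higher with the 6 libraries fitted alone and when the 48 h libraries were left out. The NLP17 groups did not overlap, and NLP13 and NLP7 were separated as well, at log2 fold changes of 0.88 (adjusted p = 0.178) and 0.68 (adjusted p = 0.0699, the smallest of the 5). Of all genes tested, 36.8% had groups that did not overlap. NLP6 and NLP4 overlapped between groups at 0.10 and -0.26.

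**Figure D5:**
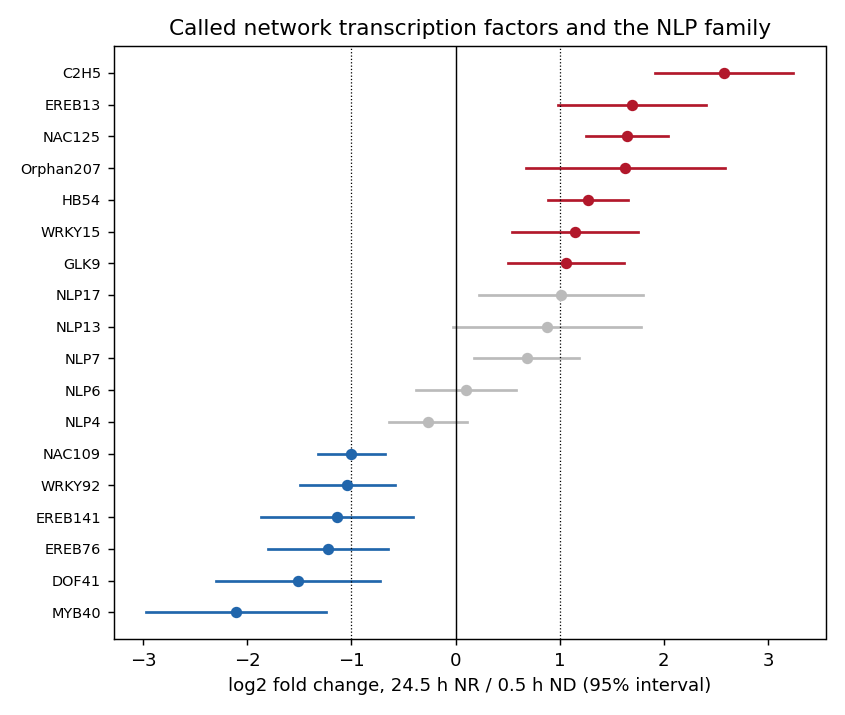
Points are the log2 fold changes (24.5 h NR over 0.5 h ND) of the 13 called network transcription factors and the 5 NLP genes, with 95% intervals from limma. Dotted lines mark 1 and -1. Red and blue genes were called higher and lower, and grey genes were not called. C2H5 lies at 2.58 and MYB40 at -2.11.

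Beyond the network, a set of genes with a description in the study's tables was used. These descriptions cover only genes that the study called at early times in this series, which holds leaf as well as root samples. Counts over them are therefore not independent evidence of direction. Among the 360 called genes with separated groups and at least 10 TPM in the higher group, 65 had a name or description, of which 31 were higher and 34 lower.

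Several described genes act in electron supply, chromatin and nitrogen signalling. A gene described as probable ferredoxin-4 (Zm00001eb348290), a carrier of electrons in plastids, had 3.4, 5.09 and 3.75 TPM at 0.5 h and 10.96, 22.3 and 17.4 TPM at 24.5 h (log2 fold change 1.78 (SE 0.56, adjusted p = 0.047)), with means of 23.7 TPM at 0 h and 3.5 TPM at 24 h. It was not called without any 1 of the 6 libraries (log2 fold change 1.56 to 2.04, adjusted p 0.0714 to 0.126), nor after either rescaling (log2 fold change 1.66 to 1.67, adjusted p 0.0736 to 0.0801). In all, the ferredoxin-4 call was lost in 13 of the 18 alternatives. Of 10 tested genes of the ferredoxin and redox keyword list, 2 were called, both higher (20%). A gene described as LOB domain-containing protein 39 (Zm00001eb051620), a family whose members act in nitrogen responses in Arabidopsis, had 20.5, 16.1 and 17.3 TPM at 0.5 h and 40.4, 63.97 and 55.6 TPM at 24.5 h (log2 fold change 1.498 (SE 0.34, adjusted p = 0.0133)), after 56.6 TPM at 0 h and 23.9 TPM at 24 h. That call was lost without 0.5 h ND replicate 2 (log2 fold change 1.43, adjusted p = 0.0555). The LOB domain gene was the only call among 12 tested genes of the nitrate signalling keyword list, which is 8.33%. A histone H4 gene (Zm00001eb320810) had 61.6, 53.6 and 50.8 TPM at 0.5 h and 190.1, 203 and 351 TPM at 24.5 h (log2 fold change 2.09 (SE 0.20, adjusted p = 0.000129)), and its levels of 131 TPM at 0 h and 184 TPM at 24 h lay above those at 0.5 h.

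Of the other described genes with large positive fold changes, LTL1, a lipase-type gene (Zm00001eb280670), had 2.08, 2.54 and 2.46 TPM at 0.5 h and 10.5, 18.9 and 9.21 TPM at 24.5 h (log2 fold change 1.98 (SE 0.50, adjusted p = 0.0212)). A gene of the 2OG-Fe(II) oxygenase family (Zm00001eb346760) had 7.49, 8.19 and 10.4 TPM and 41.9, 26.3 and 31.7 TPM (log2 fold change 1.81 (SE 0.39, adjusted p = 0.0111)), with 14.6 TPM at 0 h and 22.7 TPM at 24 h. The oxygenase gene was not called without 24.5 h NR replicate 1 (log2 fold change 1.64, adjusted p = 0.0508). LTL1 was already at 12.4 TPM at 24 h against 3.22 TPM at 0 h, and was not called without 0.5 h ND replicate 2 or 3, or 24.5 h NR replicate 1 or 2 (log2 fold change 1.69 to 2.09, adjusted p 0.0532 to 0.0687).

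Among the described genes with large negative fold changes, the phosphate transporter gene (Zm00001eb004100) had 8.42, 33.8 and 49.4 TPM at 0.5 h and 4.29, 0 and 2.39 TPM at 24.5 h, where replicate 2 was listed at 0 (log2 fold change -3.28 (SE 0.89, adjusted p = 0.0275)). Its mean was 12.01 TPM at 0 h and 2.69 TPM at 24 h, and it was not called with a pseudocount of 0.1 or without 0.5 h ND replicate 2 or 3, or 24.5 h NR replicate 2 or 3 (log2 fold change -2.59 to -3.47, adjusted p 0.0626 to 0.1). In the phosphate starvation keyword list, 8 genes were tested and 0 were higher and 1 lower, 12.5%, with a list median of -1.12 and a median of -1.98 for the starting levels. A gene described as BAHD acyltransferase DCR (Zm00001eb147650), which in Arabidopsis acts in cutin formation, had 59.1, 75.7 and 102 TPM at 0.5 h and 15.6, 16.98 and 28.3 TPM at 24.5 h (log2 fold change -1.92 (SE 0.23, adjusted p = 0.000525)), with 27.1 TPM at 0 h and 17.9 TPM at 24 h. SLAH1, an anion channel gene (Zm00001eb118730), had 10.9, 20.7 and 22.4 TPM at 0.5 h and 3.28, 4.74 and 5.09 TPM at 24.5 h (log2 fold change -1.78 (SE 0.34, adjusted p = 0.0067)), after starting levels of 38.3 and 7.63 TPM. The anion channel gene had differed before the change of solution.

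A mitochondrial valine-tRNA ligase gene (Zm00001eb415210) was lower at 24.5 h although its starting level was higher. It had 173, 144 and 141 TPM at 0.5 h and 47.6, 62 and 53.8 TPM at 24.5 h (log2 fold change -1.47 (SE 0.13, adjusted p = 0.000113)), after 78.2 TPM at 0 h and 134 TPM at 24 h. The F-box gene SKIP20 (Zm00001eb168220) had 172, 162 and 206 TPM at 0.5 h and 50.4, 63.5 and 68.8 TPM at 24.5 h (log2 fold change -1.55 (SE 0.37, adjusted p = 0.0167)), and means of 83.3 TPM at 0 h and 59.04 TPM at 24 h. It was not called without 0.5 h ND replicate 3 or 24.5 h NR replicate 1 (log2 fold change -1.42 to -1.45, adjusted p 0.057 to 0.0669). Aspartic proteinase A3 (Zm00001eb117200) had 8.48, 10.7 and 12.4 TPM and 1.61, 2.85 and 3.77 TPM (log2 fold change -1.65 (SE 0.42, adjusted p = 0.0219)), and means of 1.19 TPM at 0 h and 1.39 TPM at 24 h. This proteinase gene lost its call without 0.5 h ND replicate 2 or 3, or 24.5 h NR replicate 1 (log2 fold change -1.41 to -1.63, adjusted p 0.0704 to 0.0896).

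Clock and chaperone genes were called in small numbers. In the circadian clock keyword list, 2 of 12 tested genes were called, both higher and both described as LUX, a component of the evening complex in Arabidopsis, 16.7% of the list. In the starting levels, 24 h ND against 0 h NN, 5 of the 12 were called higher and 3 lower, with a median of 0.78 against 0.40 in the contrast. Zm00001eb362240 had 2.5, 3.88 and 4.2 TPM at 0.5 h and 10.8, 11.04 and 10.8 TPM at 24.5 h (log2 fold change 1.41 (SE 0.23, adjusted p = 0.0033)), and Zm00001eb139830 had 2.38, 3.57 and 5.0 TPM and 8.26, 7.85 and 9.9 TPM (log2 fold change 1.09 (SE 0.27, adjusted p = 0.021)). The first had 0.55 TPM at 0 h and 3.22 TPM at 24 h, a starting log2 difference of 1.44 (adjusted p = 0.000942 by limma), about as large as its difference in the contrast. The second had 0.501 TPM at 0 h and 1.26 TPM at 24 h and was not called after either rescaling (log2 fold change 0.97 to 0.98, adjusted p 0.0467 to 0.054) or without 0.5 h ND replicate 1 or 2, or 24.5 h NR replicate 1 or 3 (log2 fold change 0.88 to 1.12, adjusted p 0.0583 to 0.0747).

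In the heat shock and chaperone list, 0 of 19 tested genes were higher and 2 were lower, 10.5%. Heat shock protein 90-4 (Zm00001eb034130) had 22.1, 21.2 and 10.5 TPM at 0.5 h and 11.7, 6.49 and 4.85 TPM at 24.5 h (log2 fold change -1.14 (SE 0.27, adjusted p = 0.0162)), with groups that overlapped, and starting levels of 78.5 TPM at 0 h and 76.4 TPM at 24 h. It was far below its starting level in both groups, and was not called without 0.5 h ND replicate 1 or 2, or 24.5 h NR replicate 3 (log2 fold change -0.89 to -0.99, adjusted p 0.0513 to 0.0748). A dnaJ 11 gene (Zm00001eb228100) had 16.6, 13.2 and 14.7 TPM at 0.5 h and 5.56, 3.61 and 6.52 TPM at 24.5 h (log2 fold change -1.37 (SE 0.40, adjusted p = 0.0374)), with 4.01 TPM at 0 h and 3.75 TPM at 24 h. The call was lost without any 1 of the 6 libraries (log2 fold change -1.17 to -1.52, adjusted p 0.0661 to 0.111). In all, the dnaJ 11 call was lost in 9 of the 18 alternatives.

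Of the genes with no name, the 2 largest positive and 2 largest negative fold changes under the same conditions were the following. Zm00001eb294730 had 5.0, 9.43 and 10.6 TPM at 0.5 h and 113, 186 and 111 TPM at 24.5 h (log2 fold change 3.89 (SE 0.38, adjusted p = 0.000129)), and was the second gene whose log2 fold change was tested to exceed 1 (adjusted p = 0.00791). Zm00001eb412980 had 18.6, 3.71 and 2.66 TPM and 54.3, 52.1 and 74.2 TPM (log2 fold change 3.12 (SE 0.71, adjusted p = 0.0137)). Their means were 23.5 and 5.39 TPM at 0 h and 25.9 and 14.4 TPM at 24 h. Zm00001eb412980 was not called without 0.5 h ND replicate 2 or 3, or 24.5 h NR replicate 3 (log2 fold change 2.65 to 2.96, adjusted p 0.052 to 0.0615).

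The negative ones were Zm00001eb231210, with 70.1, 138 and 120.2 TPM at 0.5 h and 1.6, 31.1 and 3.0 TPM at 24.5 h (log2 fold change -3.93 (SE 0.83, adjusted p = 0.00981)), and Zm00001eb137370, with 18.8, 101 and 143 TPM and 3.17, 7.22 and 5.7 TPM (log2 fold change -3.44 (SE 0.59, adjusted p = 0.0041)). Both were far lower by the end of deprivation, moving from 193 and 111 TPM at 0 h to 11.1 and 3.34 TPM at 24 h.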

How the data were processed

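Root and leaf RNA-seq libraries, 36 in all, were deposited as TPM, which the authors computed per gene with StringTie after STAR alignment to B73 version 5. Each library sums to 1000000 TPM, so depth is unknown and no count model was used. The submitters' notes also name Trimmomatic and DESeq2, whereas the methods say maize reads needed no trimming. Kit, sequencer, nutrient solution and pool size differ between labels and methods, and the library chemistry is not settled here.

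The fits used log2(TPM + 1), a scale on which the fold changes of low genes are understated. Genes with 1 TPM or more in at least 3 of the 6 libraries were fitted with limma 3.58.1 (R 4.3.3), all 18 root libraries, a coefficient per time point and a prior that followed the mean level. P-values were two-sided with Benjamini-Hochberg adjustment over 24815 genes. A simulation with independent normal noise had 100 genes shifted by 1.5 and 100 by 3 on the log2 scale. It recovered 94 and 100, with 2 false calls. Each simulated gene had the same spread in all 18 libraries, so a group with a wider spread was not simulated. The shifted genes were drawn only from those with a mean log2(TPM + 1) above 3, so recovery at lower levels is unknown. P-values measure the spread between the pooled replicates.

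Members, lists and tests were chosen with earlier results of these data known. Named genes were all tested members of the nitrate assimilation and N transporter lists; called genes of other network lists and of 4 keyword lists; the 12 largest named rises and falls among called genes with separated groups and at least 10 TPM in the higher group; and 2 unnamed each way. NLP genes and LHCB5 were named regardless, as were members below the filter. File identifiers were found directly in the RefSeq table (NAM-5.0) for 0 genes; through older identifiers given by the study, 282 of 369 network genes matched 1 RefSeq gene, whose coordinates are given. Alternatives were pseudocounts of 0.1 and 5, other filters, 2 rescalings, a replicate block, other sample sets and variance priors, other call rules, and each library left out.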

Additional observations from a re-analysis of the deposited data

How the results depend on the processing

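The count of 613 genes was recomputed under 20 alternatives, and up to 18 of them were also applied to each named gene. A pseudocount of 5 gave 253 calls (130 higher, 123 lower). Calling by adjusted p alone gave 3133 (2282 higher, 851 lower, 72.8% higher). Testing each gene for a log2 fold change past 1 gave 2 higher and 0 lower, 100% higher. Median-of-ratios scaling gave 192 higher and 369 lower (34.2% higher), and quantile normalization gave a share of 35.3%. Leaving out the 48 h libraries, which are outside the contrast, gave 759 calls (430 higher, 329 lower), a share of 56.7% higher. Leaving out each library in turn gave 311 to 749 calls, 158 to 400 higher, 153 to 353 lower and a share of 43.4% to 57.6%. The nitrate assimilation median ranged from 0.98 to 1.14 in these omissions and fell to 0.67 without the filter, which adds the genes of low level. The number of its members called higher was 4 to 6 in the alternatives computed for it, which do not include the test of each gene against a log2 fold change of 1; UPM2 was its 1 member past that test. Of the 48 named calls, 41 were kept under both rescalings and 15 in each alternative run.

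Replicate numbers showed no clear pairing of the libraries. Correlations of deviations from group means were 0.15, 0.08 and -0.16 for equal numbers and -0.30 to 0.21 for others. With 3 libraries a group these correlations constrain one another, so they cannot settle whether equal numbers mark pairs. With the replicate block 580 genes were called, 573 of them shared with the 613. LHCB5 and NLP6, neither of them called, changed sign: LHCB5 ranged from -0.62 (without 24.5 h NR replicate 3) to 0.97 (without replicate 1 of that group) and was -0.33 without 0.5 h ND replicate 3, and NLP6 went to -0.0298 and -0.0357 under median-of-ratios and quantile scaling. Depth is unknown, so low genes carry an unknown counting error, and a gene at 0 is only listed at 0.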

Other observations

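Calls in other families of the network are given beside 2.47% over all genes. Of 43 tested EREB factors, 1 was called higher and 2 lower (6.98%), and their median log2 fold change was -0.19 against 0.13 for all genes. Of 28 NAC factors 1 was higher and 1 lower (7.14%), of 17 MYB factors 0 were higher and 1 lower (5.88%), and of 16 WRKY factors 1 was higher and 1 lower (12.5%). These shares rest on 1 to 3 genes each. None of 30 bZIP, 13 bHLH or 8 ARF factors was called by limma. Of these 51, 17 had an unadjusted p under 0.05, against 30% of all genes tested.

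Keyword lists of other processes, built from descriptions of genes that the study called in this series, differed in their share of calls. The 20 tested ethylene-responsive factors had 0 higher and 1 lower (5%) with a median of -0.38. The 10 jasmonate genes had 1 higher and 1 lower (20%) with a median of -0.41. The 15 sugar and trehalose genes had 0 higher and 1 lower (6.67%), and the 10 WRKY genes had 1 higher and 2 lower (30%). None of 14 calcium signalling, 12 auxin or 13 leaf photosynthesis genes was called by limma. Of these 39, 8 had an unadjusted p under 0.05, against 30% of all genes tested.

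Replicate 2 at 24.5 h NR held a mixed position, which was noticed after the values were seen. It was the lowest of the 3 libraries for NRT2.1, NRT2.2, NAR2.1, NHL4, Orphan207, WRKY15 and GS1-5. It was the highest of the 3 for NR2, UPM1, UPM2, NIR1 and NIR2. At 24 h ND, replicate 2 was the highest of 3 for NRT2.1 (228 TPM), NRT2.2 (184 TPM) and NAR2.1 (42.4 TPM). At 48 h NR, outside the contrast, the libraries had 0.285, 217 and 1.52 TPM of NRT2.1 and 0.530, 76.4 and 0.566 TPM of NRT2.2. Replicate 2 at 48 h had the lowest mean correlation with its own group of the 18 root libraries (0.950). All 18 were fitted together, so the spread at 48 h entered the standard errors of the contrast.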
